A study of Homo sapiens with 15 samples.

Results

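The comparison described here set human cells that carried the fusion YAP-MAML2 in its diffuse state against cells that carried eGFP alone. It took 6 of the 15 RNA-seq libraries of the study, chosen by their labels: 3 of SPARK-OFF cells treated with rapamycin for 5 h and 3 of eGFP cells labelled Mock. It was described over the 18391 genes that passed an expression filter, of 61533 in the deposited table. All cells were HEK293T by their labels (HEK293 in the study), a kidney-derived line into which genes are readily introduced. SPARK-OFF is a tag system in which rapamycin couples mCherry, through Frb and FKBP, to a phase-separating protein and so dissolves its condensates. The other 9 libraries held SPARK-OFF cells with DMSO, in which YAP-MAML2 is condensed, and no-mCherry control cells with DMSO or rapamycin, which carry the tagged fusion without mCherry, each with 3 libraries and 5 h of treatment. The diffuse and eGFP cells therefore differed by the fusion, its tags, the mCherry module, the making of the line and rapamycin. No treatment time is given for the eGFP cells, so vehicle and handling may differ as well. These cannot be told apart in this comparison alone. The study calls the cells engineered and stable. Neither the promoter that drives the fusion nor whether a line is a clone is given in the sources used here, and nothing says that the replicates were separate cultures, so a p-value reflects the spread of these samples alone, which may be technical.

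YAP is a transcriptional coactivator that is held in the cytoplasm by the kinases of the Hippo pathway and, when nuclear, binds DNA through the TEAD family of transcription factors. MAML2 belongs to the Mastermind family of Notch coactivators, and its C-terminal part is rich in transcription activating sequence. Fusions of YAP with MAML2 occur in human tumours, join the TEAD-binding part of YAP to that activating part of MAML2 and drive genes such as CCN2 (CTGF), CCN1 (CYR61) and ANKRD1. Apart from its use in SPARK-OFF, rapamycin is an inhibitor of mTORC1, a kinase complex that promotes ribosome production and protein synthesis.

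Library totals were 16526624 to 24797509 counts in diffuse cells and 14941777 to 17160982 counts in eGFP cells, and 26179 to 27193 genes against 24900 to 25585 genes had at least 1 count. Mitochondrially encoded transcripts took 3.04% ± 0.159 of the counts in diffuse cells and 3.75% ± 0.0721 in eGFP cells (SD, n = 3 each), with groups that did not overlap (two-sided exact permutation p = 0.1, the smallest that 3 against 3 allows). Their share was 3.04 to 3.33% in condensed cells, 3.75 to 3.83% in no-mCherry cells with DMSO and 3.8 to 3.93% in those with rapamycin. Of 15 genes that mark the HEK293 character of cells, all were tested, and the neurofilament genes NEFL and NEFM, the intermediate filament gene VIM and SOX4 were present in both groups. Of 18 defining markers of other lineages (blood, endothelium, liver, muscle, lung, gut and others), only 8 were tested, and of these only CDH5, a cadherin of endothelium, was called, at 0.702 CPM in diffuse and 0.0637 CPM in eGFP cells. CPM are counts per 1000000 of a library's TMM-scaled total. In bulk libraries, fewer cells that express a gene and less RNA per cell cannot be told apart.

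The transgene was read through its parts. MAML2 (ENSG00000184384.14, chromosome 11, 95976598 to 96343195 on hg38, minus strand) had 553, 563 and 504 CPM in the 3 diffuse libraries and 3.81, 4.30 and 2.77 CPM in the 3 eGFP libraries. YAP1 (ENSG00000137693.14, chromosome 11, 102110447 to 102233424, plus strand) had 276, 279.9 and 245 CPM against 51.2, 55.4 and 51.8 CPM. Every diffuse library lay above every eGFP library for both genes, and the log2 fold change was 7.21 (standard error 0.136) for MAML2 and 2.34 (standard error 0.108) for YAP1. Counts of the introduced and the cells' own gene cannot be separated, so neither value is a result about the cells' own gene. The diffuse cells held the highest group means of the study for both parts: MAML2 was at 415 ± 23.9 CPM in condensed cells, 243 CPM in no-mCherry cells with rapamycin and 220.4 CPM in those with DMSO. At the protein level, the study reports no change in YAP-MAML2 when its condensates dissolved, by Western blot and by total fluorescence per cell. In RNA counts, the diffuse libraries lay above the condensed libraries without overlap for both genes. The log2 difference was 0.38 for MAML2 (standard error 0.098, unadjusted p = 0.0008) and 0.41 for YAP1 (standard error 0.106, unadjusted p = 0.000856), and neither passed edgeR's quasi-likelihood test after Benjamini-Hochberg adjustment over all genes (adjusted p = 0.209 and 0.215).

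Diffuse cells differed from eGFP cells at a large number of genes, with the largest differences among those that rose. In total 2132 genes (11.6% of those tested) were DEGs, called by edgeR's quasi-likelihood test, fitted to the 15 libraries together, at P under 0.01, FDR under 0.1 and a log2 fold change of 0.58 or more in size (about 1.5-fold). Of these, 1121 (6.1%) were higher and 1011 (5.5%) lower in diffuse cells. At an adjusted p under 0.05 with no fold limit, 2100 genes (11.4%) were higher and 2297 (12.5%) lower, and at an unadjusted p under 0.05 the shares were 17.6 and 18.4%. The 3 diffuse and 3 eGFP libraries did not overlap for 40.6% of all genes tested. In a list below, "rose" and "fell" refer to DEGs, and a list's count is to be read against these shares. The counts of rises and falls were near each other, but their sizes were not. At least 2-fold changes were seen for 694 rising and 310 falling DEGs, at least 4-fold for 316 and 35, and at least 16-fold for 106 and 1. Among DEGs with at least 5 CPM in the higher group, 58 rises and 6 falls reached 4-fold. No count fell in any eGFP library for 56 of the rising DEGs, of which 31 were protein-coding and 20 lncRNA genes, whereas 1 falling DEG, an lncRNA gene, had no count in any diffuse library. All 56 were among the DEGs that rose at least 4-fold, and their fitted folds depend on the prior count. Genes passed the expression filter if they reached it in any of the 5 groups, and 4 of these carry the fusion, so a gene that is silent in eGFP cells could pass through the others.

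**Figure D1:**
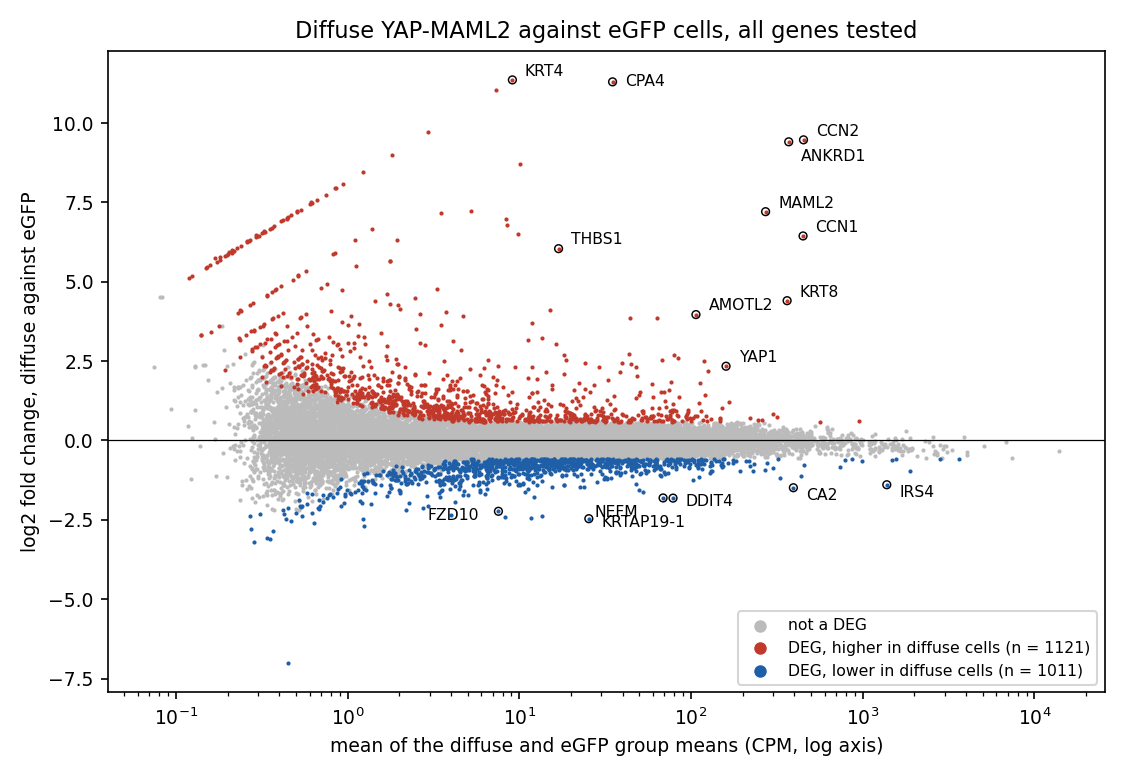
Log2 fold change of diffuse against eGFP cells (vertical axis) for each gene tested, against the mean of both group means in CPM (horizontal log axis), with 1121 higher DEGs in red and 1011 lower DEGs in blue. Rises extend far further from 0 than falls, and the points on the straight upper line are genes without counts in eGFP cells, whose fitted value depends on the prior count and is no bound.

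CCN2 and ANKRD1, by which YAP activity is commonly read, were near 1 CPM in eGFP cells and among the most abundant rising mRNAs of diffuse cells, and CCN1 reached the same range from about 10 CPM. Promoters of strongly rising genes that the reference table held and that carried the letters of a TEAD site (GGAATG, searched on both strands) are shown here because YAP reaches DNA through TEAD. Binding was not measured in these libraries. Of 22 genes looked up, the 20 largest rises among them, 14 were in the table and 5 held these letters, and that of YAP1 is not shown because its counts hold the transgene. Each line gives the 250 bases before the RefSeq start on GRCh38.p14 in the direction of the gene, with GGAATG and the AP-1 letters TGANTCA in capitals. They are CPA4 at chr7:130292911-130293160 (plus strand), CCN2 at chr6:131951373-131951622 (minus), ANKRD1 at chr10:90921088-90921337 (minus) and THBS1 at chr15:39580829-39581078 (plus).
CCN2: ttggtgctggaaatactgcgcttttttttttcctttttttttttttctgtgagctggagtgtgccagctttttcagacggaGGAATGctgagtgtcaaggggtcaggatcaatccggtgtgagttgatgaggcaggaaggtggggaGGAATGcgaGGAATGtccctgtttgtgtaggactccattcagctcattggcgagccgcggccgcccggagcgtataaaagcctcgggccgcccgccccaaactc
ANKRD1: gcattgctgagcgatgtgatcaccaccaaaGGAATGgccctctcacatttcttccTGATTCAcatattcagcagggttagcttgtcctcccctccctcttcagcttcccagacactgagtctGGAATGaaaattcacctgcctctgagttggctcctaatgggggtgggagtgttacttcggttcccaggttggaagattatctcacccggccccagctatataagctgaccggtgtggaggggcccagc
THBS1: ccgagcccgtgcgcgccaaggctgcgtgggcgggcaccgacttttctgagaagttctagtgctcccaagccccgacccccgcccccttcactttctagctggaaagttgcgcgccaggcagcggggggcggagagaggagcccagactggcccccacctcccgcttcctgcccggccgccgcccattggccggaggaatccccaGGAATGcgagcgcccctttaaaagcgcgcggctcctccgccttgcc
CPA4: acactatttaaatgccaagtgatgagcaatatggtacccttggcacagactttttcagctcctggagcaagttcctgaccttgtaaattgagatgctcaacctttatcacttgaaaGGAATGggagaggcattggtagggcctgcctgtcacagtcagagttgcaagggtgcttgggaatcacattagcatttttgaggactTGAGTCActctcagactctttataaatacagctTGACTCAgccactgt
The CCN2 window held GGAATG 3 times, that of ANKRD1 2 times with TGATTCA between them, that of THBS1 1 time, and that of CPA4 1 time with TGAGTCA and TGACTCA nearer to the start. The same letters occurred in 9.25% of the 8940 promoters of tested genes that the table held, in 14.9% of 403 promoters of rising and 6.76% of 444 of falling protein-coding DEGs, and in 21.7% of the 115 of protein-coding DEGs that rose at least 4-fold. For TGANTCA the shares were 3.75, 6.45, 2.93 and 8.7%. These are matches of letters, not binding sites, and the shares are a description without a test.

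CCN2 (ENSG00000118523.6, chromosome 6, 131948176 to 131951372, minus strand), a secreted matricellular protein, had 911, 898 and 899 CPM in diffuse libraries and 1.37, 1.47 and 0.924 CPM in eGFP libraries. Its relative CCN1 (ENSG00000142871.18, chromosome 1, 85580761 to 85584589, plus strand) had 902, 890.5 and 872 CPM against 9.68, 10.3 and 10.7 CPM. ANKRD1 (ENSG00000148677.7, chromosome 10, 90912096 to 90921087, minus strand), an ankyrin repeat protein of heart and skeletal muscle, had 669, 768 and 784 CPM against 1.06, 0.648 and 1.58 CPM. The spread between replicates was small beside these gaps, and no diffuse library came near an eGFP library. THBS1 (ENSG00000137801.11, chromosome 15, 39581079 to 39599466, plus strand), the matrix glycoprotein thrombospondin 1, had 36.1, 32.6 and 31.3 CPM against 0.312, 0.590 and 0.594 CPM. AMOTL2, an angiomotin relative that binds YAP at junctions, had 207, 200.2 and 195 CPM against 11.8, 13.03 and 13.7 CPM. IGFBP3, a carrier of insulin-like growth factors, moved least of these, with 3.11, 4.29 and 2.62 CPM against 0.0625, 1.12 and 0.660 CPM. Each of these 6 genes was higher in all 3 diffuse libraries than in any eGFP library, and each was a DEG, with an adjusted p between 2.39e-23 for CCN2 and 0.000197 for IGFBP3 from edgeR's quasi-likelihood test.

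Core YAP and TEAD targets did not all move. Of 22 listed, all tested, 13 rose, 1 fell and the others were no DEGs, with a median log2 fold change of 1.22 beside 0.006 over all genes tested. CCN1, CCN2, ANKRD1 and IGFBP3 are also readouts that the study chose, so for them the list is no independent evidence of its direction. Beside the genes above, the growth factor gene TGFB2 rose by 3.14 on the log2 scale (standard error 0.256), the kinase gene NUAK2 by 2.33, the membrane repair gene MYOF by 2.31 and the matrix-anchored BMP regulator gene CRIM1 by 1.84. At the lower end of the rises were PTPN14, a phosphatase that restrains YAP (0.76), and GADD45A, a growth arrest gene (0.71). FJX1 and FOXF2 passed only the adjusted p, with 0.38 and -0.44. No call under either rule was reached by ASAP1 (0.03), F3 (0.18), CCDC80 (0.28), DOCK5 (-0.15), NT5E (-0.46) and AXL (0.90, with an adjusted p of 0.127 by edgeR's quasi-likelihood test), and all of these had counts in both groups. The gene that fell, ARHGEF17, a guanine nucleotide exchange factor gene, had 14.8, 12.3 and 15.5 CPM in diffuse and 23.2, 27.2 and 27.1 CPM in eGFP cells.

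The Hippo pathway's own members moved in both directions. Of 43 listed, 40 were tested, 9 rose and 4 fell (median 0.20). Among negative regulators, LATS2, a kinase that phosphorylates YAP, had 53.2, 49.9 and 51.9 CPM in diffuse and 11.7, 14.3 and 15.1 CPM in eGFP cells, and the scaffold gene WWC2 rose by 1.53 (standard error 0.115). AJUBA, a LIM protein that binds and restrains LATS kinases, had 203, 203 and 198 CPM against 35.4, 34.2 and 37.5 CPM. The angiomotins went opposite ways: AMOTL2 rose, and AMOT had 297, 265 and 266 CPM against 532, 601 and 664 CPM (-1.12 on the log2 scale, standard error 0.15). Of the TEAD factors, TEAD1 rose from 42.4, 52.6 and 52.7 CPM to 110.4, 109 and 107 CPM, and TEAD2 fell by 0.73 on the log2 scale (standard error 0.149). The giant cadherin genes split too, with FAT3 (-1.48) and DCHS1 (-0.62) lower and FAT4 (0.68) higher. YAP1 is among the 9 that rose, and its counts hold the transgene.

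The Notch pathway, to which MAML2 belongs, showed more falls than rises. Of 37 listed, 35 were tested, 3 rose and 6 fell (median -0.28). The rises were MAML2 itself, whose counts hold the transgene, the ligand gene JAG1 (23.6, 23.5 and 22.9 CPM against 8.37, 6.72 and 7.59 CPM) and DTX3L. DTX3L, a ubiquitin ligase gene, also stands in the interferon list. The receptor gene NOTCH3 had 77.4, 66.9 and 62.6 CPM against 137, 158 and 166 CPM, and NOTCH1 had 30.4, 27.1 and 26.7 CPM against 41.6, 43.8 and 55.6 CPM. Of the target repressors, HEY1 had 108, 113 and 106 CPM against 191, 191 and 199.6 CPM, and HES2, HES4 and HES7 fell by 1.35, 0.72 and 0.96 on the log2 scale. For both receptor genes and for HEY1 the groups did not overlap.

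Other genes rose from next to nothing. KRT4 (chromosome 12, 52806549 to 52814116), a keratin of stratified epithelia, had 16.8, 18.3 and 19.6 CPM in diffuse libraries and no counts in any eGFP library. TTR, the carrier of thyroid hormone and retinol, had 16.8, 12.9 and 14.2 CPM and no eGFP counts. Against a floor of 3 counts over the eGFP group, the bound was at least 295-fold for KRT4 and, for TTR, at least 233-fold higher. The actin paralogue ACTBL2 was at least 95.2-fold and the fast-muscle myosin gene MYH2 at least 55-fold higher on that floor. These 4 were the protein-coding genes without eGFP counts that reached 2 CPM in diffuse cells. CPA4, a secreted carboxypeptidase, had 71.9, 72.8 and 64.7 CPM against a single count in 1 eGFP library. NPPB, the precursor of brain natriuretic peptide, had 18.4, 22.2 and 19.8 CPM against at most 0.0660 CPM. MYOCD, the smooth and cardiac muscle coactivator myocardin, had 7.90, 6.90 and 6.02 CPM against at most 0.0660 CPM. The vasoconstrictor precursor EDN1 rose by 4.05 (standard error 0.405), the secreted IGFL2 by 7.23 (standard error 0.996), the alpha kinase ALPK2 by 6.98 (standard error 0.657) and IGFBP7 by 4.12 (standard error 0.223). Several of these eGFP means rest on 10 or fewer counts in all, so the size of such folds is imprecise.

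The largest falls were smaller and belonged to other kinds of genes. KRTAP19-1, a hair keratin-associated protein, had 7.09, 8.10 and 8.12 CPM in diffuse and 51.5, 41.5 and 36.03 CPM in eGFP libraries, the largest fall (-2.46 on the log2 scale, standard error 0.147) among protein-coding DEGs with at least 5 CPM. The Wnt receptor gene FZD10 had 3.75, 2.50 and 1.82 CPM against 11.6, 12.5 and 13.1 CPM. DDIT4, induced by stress and an inhibitor of mTORC1, had 35.2, 34.03 and 35.02 CPM against 143, 102 and 123 CPM. In each of these the eGFP libraries all lay above the diffuse libraries. MAF, a leucine zipper transcription factor, had 24.1, 29.7 and 23.8 CPM against 85.8, 73.98 and 79.7 CPM. CACNA1H, a T-type calcium channel, had 25.02, 29.03 and 21.4 CPM against 72.4, 68.3 and 81.6 CPM. Among the 20 largest falls were also genes of synapses (SHANK2, -1.78, and SYT2, -1.71), of neurons (STUM, -1.78, and TENM4, -1.55), of muscle sarcomeres (MYOM2, -1.55), of bone mineral formation (PHOSPHO1, -1.63) and the homeobox gene PITX3 (-1.64), most of them between 5 and 20 CPM in eGFP cells.

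Ranked by abundance, the largest changes were partly of the same genes and partly of others. Differences in TPM (transcripts per 1000000, which allow for length) were computed for the same DEGs, and the largest rises were of MT-ND3, ANKRD1, CCN2, CCN1, the histone gene H2BC12, S100A10, KRT8, MAML2, ATP5IF1 and CITED2. KRT8, a keratin of simple epithelia, had 680.5, 702 and 696 CPM against 34.4, 30.1 and 33.7 CPM. CITED2, a CBP and p300 binding regulator, stood at 176 CPM in each diffuse library and at 49.6, 49.99 and 50.7 CPM in eGFP libraries, and S100A10, the partner of annexin A2, had 177, 173 and 178 CPM against 70.2, 60.5 and 65.9 CPM. Among the largest falls in TPM were those of MT-CO2, MT-CO3, MT-ATP6, CA2, CKB, RPL10, HES4, ZNF703 and IRS4. CA2, a carbonic anhydrase, had 212, 197 and 213 CPM against 602, 568 and 576 CPM, and IRS4, an insulin receptor substrate abundant in HEK293 cells, had 779, 758 and 745 CPM against 1971, 1942 and 2092 CPM. For these 5 genes no diffuse library reached the range of the eGFP libraries. CKB, brain creatine kinase, fell by 0.64 on the log2 scale (standard error 0.084) and ZNF703, a corepressor, by 1.18 (standard error 0.108).

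**Figure D2:**
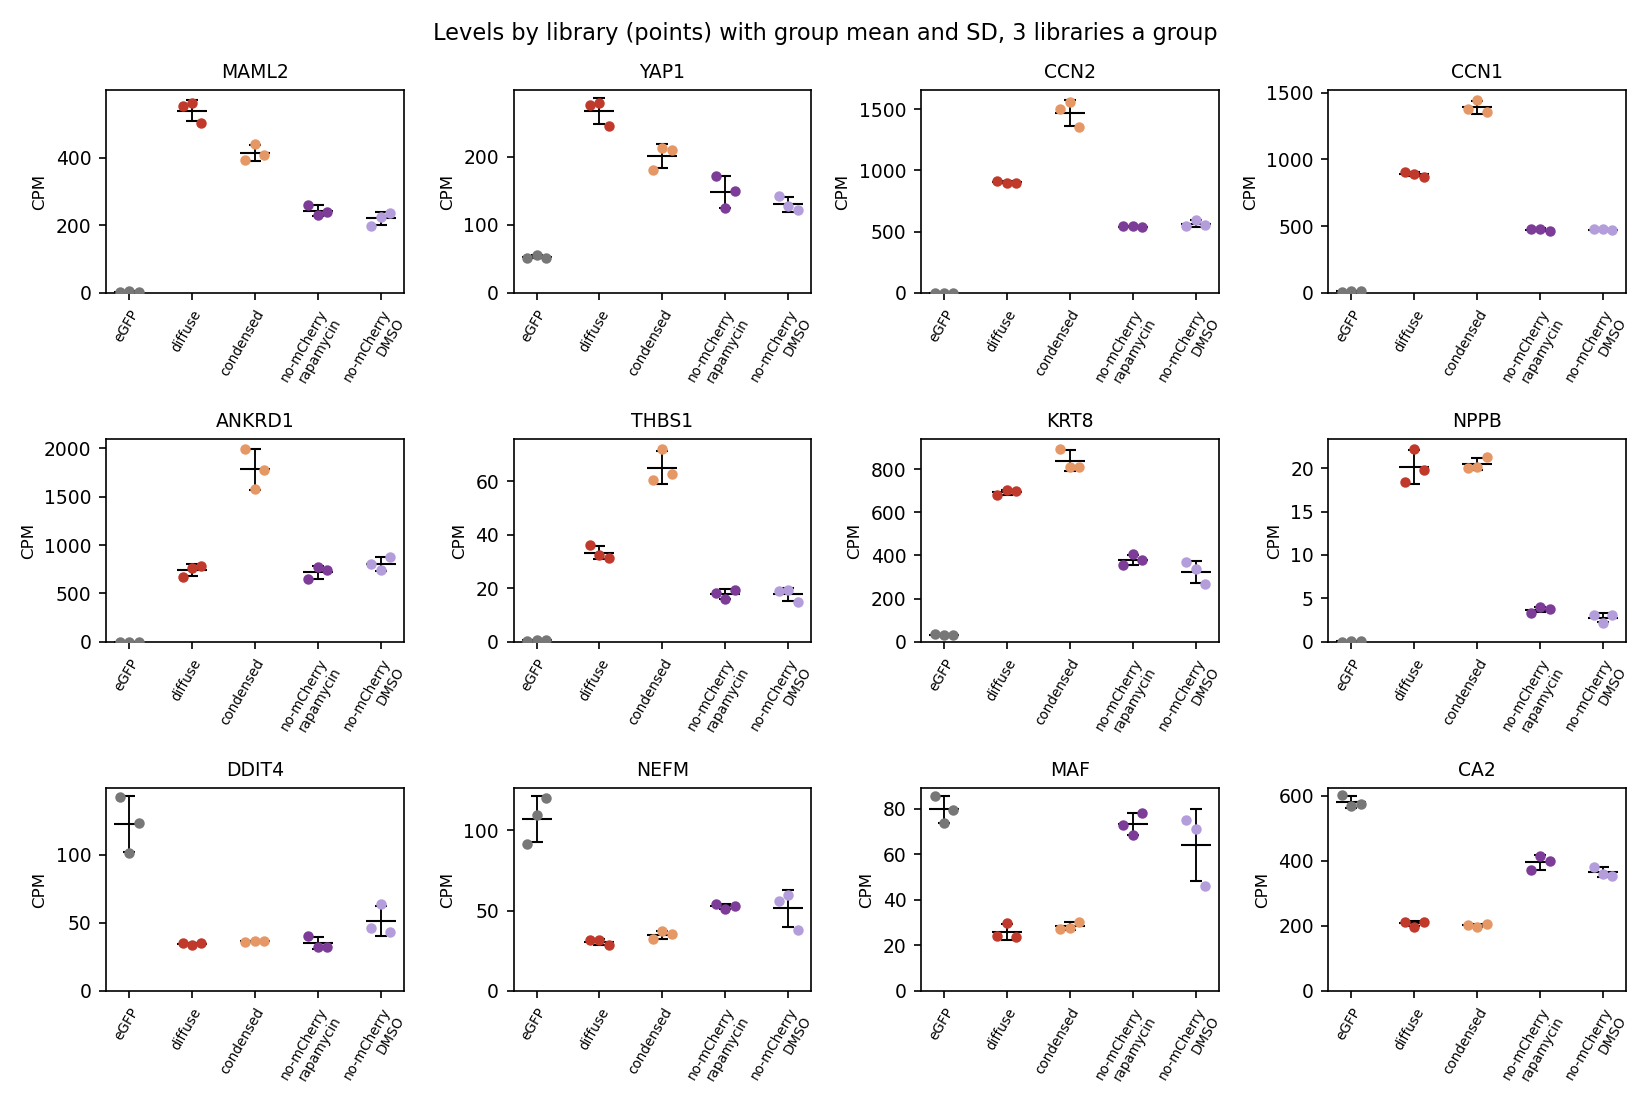
Levels of 12 genes in CPM (vertical axes, starting at 0) in the 15 libraries (points) of 5 groups, with the mean and the SD of 3 libraries. Diffuse libraries (red) lie above the eGFP libraries (grey) for MAML2, YAP1, CCN2, CCN1, ANKRD1, THBS1, KRT8 and NPPB and below them for DDIT4, NEFM, MAF and CA2, and the condensed libraries (orange) lie above the diffuse ones for CCN2, CCN1, ANKRD1 and THBS1.

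Genes of the extracellular matrix were among the most often changed, with rises in matricellular proteins and several collagens and falls in the basement membrane. Of 28 matricellular proteins, which signal to cells rather than build the matrix, 21 were tested, 8 rose and 2 fell (median 0.38). Beside CCN2, CCN1 and THBS1, POSTN (periostin) had 4.38, 4.78 and 4.60 CPM against 0.312, 0.472 and 0.396 CPM, CCN3 rose by 1.98, TNXB by 1.75, SPARC by 1.59 and TNC by 1.03. Of 41 collagen genes, 37 were tested, 12 rose and 6 fell (median 0.095, the same with COL1A2, which had no eGFP counts, at its bound). COL5A3, a minor fibrillar chain, had 23.99, 17.99 and 16.6 CPM against 0.125, 0.118 and 0.396 CPM, COL12A1 had 21.1, 24.8 and 20.6 CPM against 0.937, 2.77 and 1.32 CPM, and COL3A1 had 29.7, 32.4 and 33.4 CPM against 3.19, 7.49 and 5.61 CPM. In each of the 3 the groups did not overlap. COL1A1 (-0.74), COL5A1 (-0.79) and COL27A1 (-0.93) fell, so members of the same fibrillar family moved apart.

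Of 40 genes of laminins, basement membrane and proteoglycans, 37 were tested, 6 rose and 14 fell (median -0.41). HSPG2, the basement membrane proteoglycan perlecan, had 10.03, 10.3 and 9.75 CPM in diffuse and 25.9, 22.9 and 30.9 CPM in eGFP cells, and VCAN (versican) had 48.8, 46.3 and 42.6 CPM against 79.5, 101 and 104 CPM. The laminin genes LAMC3 (-1.08), LAMB1 (-0.70), LAMA5 (-0.67) and LAMA1 (-0.66) fell, while the glypican gene GPC5 rose by 1.53. The count of falls was 9 without diffuse replicate 3 and 7 without eGFP replicate 3. Of 48 genes of matrix crosslinking and proteolysis, 42 were tested, 4 rose and 12 fell (median -0.245). The falls included the gelatinase gene MMP2 (-1.28), MMP11 (-1.38), MMP17 (-1.38) and the ADAMTS proteases ADAMTS7 (-1.40) and ADAMTS9 (-1.17), and the rises were LOXL4, a lysyl oxidase (1.76), the heparanase gene HPSE (1.34), ADAMTS5 (1.17) and ADAMTS18 (2.75).

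Adhesion and cytoskeletal genes changed in part. Of 45 genes of integrins and focal adhesion, 40 were tested, 6 rose and 4 fell (median 0.028). CAV1, the coat protein of caveolae, had 110.1, 119 and 118 CPM against 22.6, 21.04 and 15.97 CPM, the integrin gene ITGB8 had 4.61, 7.94 and 5.94 CPM against 1.12, 0.590 and 1.58 CPM, and the caveolar gene CAVIN1 rose by 1.04. The 4 falls were integrin alpha chains, ITGA9 (-1.61), ITGA8 (-0.83), ITGA3 (-0.66) and ITGA4 (-0.61). Of 48 genes of actin and contractility, 43 were tested, 4 rose and 1 fell (median 0.008), and the rises were MYH2, RND3 (0.97), TPM1 (0.71) and FLNA (0.58). Most of that list, SRF and MRTF targets of the actin machinery among it, was no DEG.

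The intermediate filament genes that rose were keratins, and those that fell were neurofilament genes and nestin. Of 34 listed, 23 were tested, 8 rose, 3 fell and the other 12 were no DEGs (median 0.377, the same with the 4 genes without eGFP counts at their bound). The 8 rises were keratin genes: beside KRT4 and KRT8, KRT18, the partner of KRT8, had 149, 142 and 144 CPM against 23.4, 23.5 and 24.5 CPM, KRT17 rose by 2.995 and KRT10 by 0.61, and KRT1, KRT6A and KRT14 were at or near 1 CPM in diffuse cells and had no eGFP counts. KRT4, KRT1, KRT6A and KRT14, without eGFP counts, could pass the expression filter only through groups with the fusion. They could only be called higher, so the share of rises in this list is not read. KRT8 and KRT18 overlap on opposite strands and have many pseudogenes, and whether counting used the strand is stated in no source used here. The 3 falls were NEFM (31.4, 31.6 and 28.5 CPM against 91.4, 109.7 and 119.9 CPM), NEFL (42.9, 42.6 and 41.99 CPM against 89.97, 79.8 and 100.1 CPM) and NES, nestin (-0.80). Of the 15 HEK293 markers, 2 rose (KRT8 and KRT18) and 7 fell, among them NEFM, NEFL, LHX1 (-1.57), EYA1 (-1.13) and SOX4 (-0.64). Of 62 cadherins and junction genes, 40 were tested, 4 rose and 5 fell (median 0.124). CLDN1 (1.77), the connexin gene GJB2 (1.31) and OCLN (0.80) rose, while CDH1, the epithelial cadherin, had 4.50, 4.19 and 4.63 CPM against 7.75, 9.08 and 8.78 CPM. Clustered protocadherins, of which 14 of 53 were tested, held no DEG, with 1 gene higher and 0 lower at an adjusted p under 0.05 from edgeR's quasi-likelihood test.

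**Figure D3:**
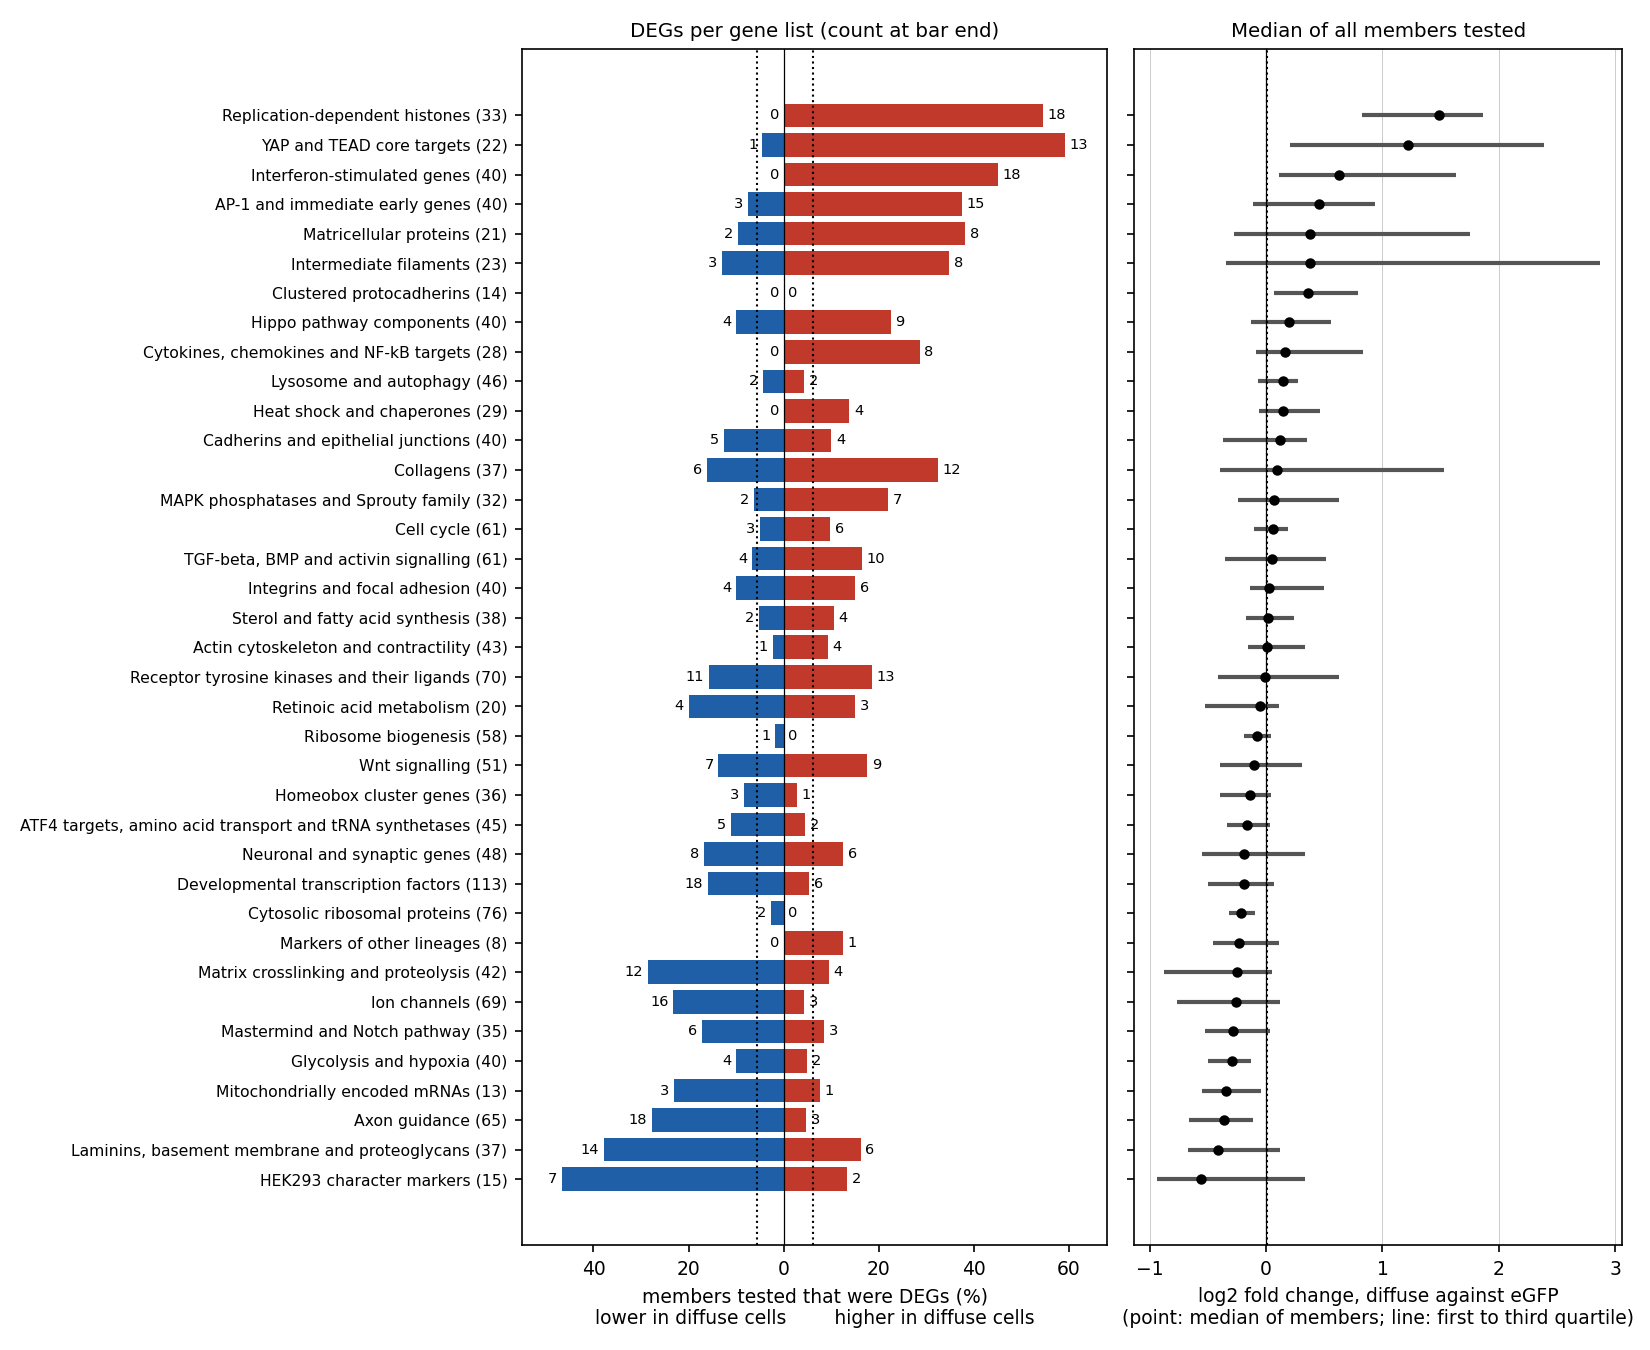
Left, share in percent of the tested members of each gene list (number tested in brackets) that were DEGs, higher (red, to the right) or lower (blue, to the left) in diffuse than in eGFP cells, with the count at each bar's end and dotted lines at the shares over all genes tested, 6.1 and 5.5%. Right, the median log2 fold change of each list with its interquartile range; replication-dependent histones (1.49) and core YAP targets (1.22) lie highest and HEK293 markers (-0.56) lowest.

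Genes of axon guidance, ion channels and developmental transcription factors fell more often than they rose, while neuronal and synaptic genes moved in both directions. Of 71 axon guidance genes, 65 were tested, 3 rose and 18 fell (median -0.36). Netrin receptor gene UNC5A had 0.980, 0.816 and 0.951 CPM against 3.62, 3.48 and 3.83 CPM, the ephrin receptor gene EPHA8 had 5.25, 4.78 and 6.46 CPM against 16.3, 14.4 and 13.5 CPM, and the Slit receptor gene ROBO2 fell by 0.92. The rises were the semaphorins SEMA3B (1.2) and SEMA3C (0.72) and the ephrin receptor EPHA2 (0.66). Of 89 ion channel genes, 69 were tested, 3 rose and 16 fell (median -0.26), with CACNA1H, KCNN3 (-1.51) and TRPM4 (-1.11) among the falls and the chloride transporter gene CLCN4 (2.0) as the largest rise. Of 63 neuronal and synaptic genes, 48 were tested, 6 rose (12.5%) and 8 fell (16.7%), with a median of -0.19. Both shares were above the 6.1 and 5.5% over all genes tested. SHANK1, SHANK2 and SHANK3, scaffolds of the excitatory synapse, fell by 1.27, 1.78 and 1.09, whereas the adhesion gene L1CAM rose by 2.25 and SCG3, a secretory granule gene, by 1.55.

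Of 136 developmental transcription factor genes, 113 were tested, 6 rose and 18 fell (median -0.19). SNAI2 (Slug) had 18.6, 20.2 and 20.3 CPM in diffuse and 41.98, 45.1 and 47.7 CPM in eGFP cells, EYA1 had 6.29, 7.99 and 6.93 CPM against 14.7, 14.3 and 17.4 CPM, and SOX8 (-1.03), SOX21 (-0.94) and HAND1 (-0.89) fell. The rises included RUNX1 (0.96), RUNX2 (0.98), FOXP1 (0.82) and GATA3 (0.65). Of 39 homeobox cluster genes, 36 were tested, 1 rose (HOXC12, 1.41) and 3 fell (HOXA4, -0.96, HOXC4, -0.79, and HOXA13, -0.65). These were 2.78 and 8.33% of the genes tested in the list, beside 6.1 and 5.5% over all genes tested.

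Signalling ligands and receptors were changed in both directions. Of 66 genes of TGF-beta, BMP and activin signalling, 61 were tested, 10 rose and 4 fell (median 0.051). The ligand gene GDF6 had 19.6, 23 and 17.99 CPM against 1.94, 2.59 and 2.18 CPM, the activin chain INHBE rose by 2.98, BMP5 by 2.30 and BMP4 by 1.80, and BMP2 fell by 1.06. The activin binder FSTL3 had 79.5, 73.2 and 71.4 CPM against 15.99, 12.9 and 13.7 CPM, and the feedback inhibitor SMAD7 and the target ID1 rose by 1.57 and 1.44. Of 63 Wnt genes, 51 were tested, 9 rose and 7 fell (median -0.099). The secreted Wnt inhibitor DKK1 had 23.2, 25.1 and 24.6 CPM against 2.94, 2.83 and 2.05 CPM, FRZB and DKK2, further secreted inhibitors, rose by 2.36 and 1.36, and FZD10, WNT3A (-0.93) and ROR1 (-0.77) fell. Of 90 receptor tyrosine kinases, their ligands and IGF-binding proteins, 70 were tested, 13 rose and 11 fell (median -0.012). Among ligands, HBEGF rose from 6.62, 4.48 and 4.88 CPM to 18.5, 21.3 and 20.7 CPM, PDGFB by 3.06 and PDGFD by 4.10, and VEGFB fell by 0.62. Among receptors, FGFR4 (-1.01), RET (-1.13), ERBB3 (-0.83), KDR (-1.67), FLT4 (-0.65) and EGFR (-0.60) fell, and FLT1 (1.24), FGFR2 (0.71), DDR1 (0.63) and DDR2 (0.62) rose.

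Among immediate early genes and feedback regulators of MAP kinases, rises outnumbered falls, and most members were no DEGs. Of 40 AP-1 and immediate early genes, all tested, 15 rose and 3 fell (median 0.45). FOSL2, an AP-1 subunit, had 35.6, 31.6 and 27.5 CPM in diffuse and 5.50, 5.13 and 3.96 CPM in eGFP cells, ATF3 had 95.8, 96.01 and 104 CPM against 36.99, 31.5 and 35.2 CPM, and FOS and FOSB rose by 1.74 and 1.41. MYC was lower, with 57.2, 50.3 and 52.6 CPM against 77.8, 83.9 and 95.03 CPM, as were BHLHE40 (-0.78) and PLK3 (-0.78). Of 33 MAP kinase phosphatases, Sprouty genes and related feedback genes, 32 were tested, 7 rose and 2 fell (median 0.07). SOCS3, a brake on cytokine receptors, had 28.5, 27.4 and 31.4 CPM against 3.06, 3.54 and 4.09 CPM, and DUSP1, which dephosphorylates MAP kinases, had 74.9, 72.3 and 77.2 CPM against 27.6, 20.9 and 29.8 CPM. The list medians of AP-1 and immediate early genes against the same eGFP libraries were 0.41 in condensed cells, 0.094 in no-mCherry cells with DMSO and 0.169 in no-mCherry cells with rapamycin.

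Interferon-stimulated genes, which defend against viruses, and inflammatory genes rose in part, and no member of either list fell by the DEG rule. Of 53 interferon-stimulated genes, 40 were tested and 18 rose (median 0.63), with 0 falls by edgeR's quasi-likelihood test (2 lower at an unadjusted p under 0.05, 1 of them at an adjusted p under 0.05). IFI6 had 47.7, 48.9 and 48.1 CPM in diffuse and 10.1, 8.55 and 10.3 CPM in eGFP cells, DTX3L had 12.2, 10.3 and 11.1 CPM against 2.62, 1.89 and 3.89 CPM, and BST2, IRF7 and PARP9 rose by 1.94, 1.74 and 1.72. For IFI6 and DTX3L the groups did not overlap. Against the same eGFP libraries the list's median was 0.65 in condensed cells, 0.184 in no-mCherry cells with DMSO and 0.227 in those with rapamycin. Of 47 cytokines, chemokines and NF-kB targets, 28 were tested and 8 rose (median 0.16, the same with CCL20, which had no eGFP counts, at its bound). TNFRSF12A, the receptor of the cytokine TWEAK, had 62.2, 62.9 and 63.1 CPM against 16.2, 11.02 and 14.7 CPM, and NFKBIA, the inhibitor of NF-kB, rose by 0.69. No inflammatory gene fell by the DEG rule of edgeR's quasi-likelihood test, and 1 was lower both at an unadjusted and at an adjusted p under 0.05. Without eGFP replicate 1, and likewise without eGFP replicate 2, 5 of the inflammatory genes rose.

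Replication-dependent histone genes had the highest median of the 37 lists. Of 66 listed, 33 were tested, 18 rose and none fell by the DEG rule of edgeR's quasi-likelihood test (median 1.49), with 0 lower at an adjusted p under 0.05. H2BC12, the most abundant of those named, had 122, 119 and 128 CPM in diffuse and 48.7, 51.7 and 43.4 CPM in eGFP cells, H2AC6 had 17.6, 17.4 and 18.7 CPM against 4.50, 6.37 and 2.64 CPM, and the 18 rises ran from 1.05 for H3C6 to 3.08 for H2BC13. The groups did not overlap for H2BC12 and H2AC6. Most histone mRNAs of this kind carry no poly(A) tail, the copies are so alike that reads may be split among them, and the sources used here do not say how RNA was selected for the libraries. The list's median was 1.54 in condensed cells, 0.62 in no-mCherry cells with DMSO and 0.814 in those with rapamycin against the same eGFP libraries. Of 61 cell cycle genes, all tested, 6 rose and 3 fell (median 0.063). The inhibitor genes moved apart: CDKN1B (p27) had 99.5, 101 and 107 CPM against 53.04, 58.5 and 47.2 CPM, CDKN2B rose by 1.13, and CDKN1A (p21) had 56.7, 57.6 and 53.8 CPM against 98.8, 102 and 98.7 CPM.

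Metabolic and growth genes showed smaller shifts. Of 77 cytosolic ribosomal protein genes, 76 were tested and 2 fell, RPL10 among them, while 19 were lower and 0 higher at an adjusted p under 0.05 by edgeR's quasi-likelihood test (0 higher without adjustment at 0.05), and the median was -0.21. RPL10 had 1127, 1172 and 1239 CPM in diffuse and 1985, 1724 and 1694 CPM in eGFP cells. These genes have many processed pseudogenes, and the list's median was -0.105 in condensed cells, 0.108 in no-mCherry cells with DMSO and 0.156 in those with rapamycin. Of 58 ribosome biogenesis genes, all tested, 1 fell (BOP1, -0.75), with 3 higher and 9 lower at an adjusted p under 0.05. For rapamycin against DMSO in no-mCherry cells, 32 of these 58 genes were lower at that threshold (1.17% of all genes), with a median of -0.43, and for diffuse against condensed cells, which also differ by rapamycin, none was higher or lower (0.13% of all genes were), with a median of -0.099. Of 13 mitochondrially encoded mRNAs, 1 rose and 3 fell (median -0.34). Against the same eGFP libraries the list's median was -0.292 in condensed cells, 0.132 in no-mCherry cells with DMSO and 0.02 in those with rapamycin. MT-CO2 had 2697, 2917 and 3056 CPM against 4274, 4527 and 4290.0 CPM, and MT-ND3 went the other way, with 1084, 1161 and 1229 CPM against 842, 734 and 694 CPM.

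Of 41 genes of glycolysis and hypoxia, 40 were tested, 2 rose and 4 fell, and 18 were lower at an adjusted p under 0.05 (median -0.30). The glucose transporter gene SLC2A3 had 80.6, 72.2 and 72.9 CPM in diffuse and 11.8, 11.7 and 10.7 CPM in eGFP cells, the peptide hormone gene ADM rose by 2.43, and HK2, hexokinase 2, had 49.2, 45.3 and 48.4 CPM against 83.5, 75.3 and 74.6 CPM. HK2 and DDIT4 were also lower with rapamycin than with DMSO in no-mCherry cells, by -0.98 and -0.56 on the log2 scale (adjusted p = 0.000325 and 0.0336 by edgeR's quasi-likelihood test). Both were below eGFP cells without rapamycin too, DDIT4 by -1.75 in condensed and -1.26 in no-mCherry cells with DMSO and HK2 by -0.47 and -0.65, and diffuse and condensed cells differed by -0.07 for DDIT4 and -0.24 for HK2, neither past the test. Among 39 genes of sterol and fatty acid synthesis, 38 were tested, 4 rose and 2 fell (median 0.016). Those that rose, SC5D (1.02), CYP51A1 (0.84), MSMO1 (0.80) and IDI1 (0.77), are enzymes of sterol synthesis, and the falls were FASN, the fatty acid synthase, with 599.8, 519.8 and 477 CPM against 806, 958 and 1083 CPM, and its regulator SREBF1 (-0.74).

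Of 46 ATF4 targets, amino acid transporters and tRNA synthetases, 45 were tested, 2 rose and 5 fell (median -0.16), among them the transporter gene SLC38A2 (0.84) and, lower, PYCR1 of proline synthesis (-0.74). Of 49 lysosome and autophagy genes, 46 were tested, 2 rose (GPNMB, 1.98, and MITF, 0.81) and 2 fell (TFEB, -0.66, and GLA, -0.60). Of 33 heat shock and chaperone genes, 29 were tested, 4 rose and none fell by the DEG rule of edgeR's quasi-likelihood test (3 lower at an unadjusted p under 0.05), the small heat shock gene HSPB8 by the most (1.63). Of 25 genes of retinoic acid metabolism, 20 were tested, 3 rose and 4 fell (median -0.054), with TTR at one end and the retinoic acid hydroxylase gene CYP26A1 (-1.11) and the receptor gene RXRG (-1.21) at the other.

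The lncRNA genes as a whole rose more often and fell less often than coding genes in these counts, which were not tested and differ by level. Of 3093 lncRNA genes tested, 290 (9.38%) rose and 62 (2.0%) fell, with a median of 0.21, and of 14056 protein-coding genes 750 (5.34%) rose and 908 (6.46%) fell, with a median of -0.018. Below 1 CPM the order of the rises was the reverse, with 133 of 1220 coding genes (10.9%) and 110 of 1543 lncRNA genes (7.13%) higher and 16 and 18 lower. Genes high with the fusion could pass the expression filter through 4 groups, and genes high only in eGFP cells through 1. The excess of rises over falls at this level is therefore not read. From 1 to 10 CPM, 10.5% of coding and 12.1% of lncRNA genes rose. Among coding genes at 100 CPM or more 31 of 2212 rose and 64 fell. Processed pseudogenes rose less often (15 of 423, 3.55%). ARHGAP5-AS1 had 4.79, 3.21 and 4.001 CPM in diffuse and 1.56, 0.884 and 0.330 CPM in eGFP cells, SUGT1-DT had 6.51, 8.15 and 7.49 CPM against 3.81, 1.65 and 2.11 CPM, and ZNF232-AS1 fell, with 2.60, 2.34 and 3.72 CPM against 9.62, 8.66 and 5.08 CPM. Antisense genes and the genes they overlap cannot be told apart where counting does not use the strand.

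The share of coding genes that fell rose with GC content. In 5 equal bins by the GC content of each coding gene's longest transcript, 1.46% of genes fell in the lowest (29.2 to 40.5% GC) and 15.5% in the highest (58.4 to 79.8% GC), while 6.4% and 3.74% rose. The median log2 fold change went from 0.131 in the lowest to -0.212 in the highest bin. Against the same eGFP libraries, the corresponding medians were 0.151 and -0.235 in condensed cells, 0.239 and -0.183 in no-mCherry cells with DMSO and 0.12 and -0.114 in those with rapamycin, and between diffuse and condensed cells they were -0.03 and 0.013. Median GC was 58.2% in the axon guidance list, 55.9% in the Notch list and 55.0% in the developmental transcription factors. It was 52.7% in the ion channels, 50.1% in the basement membrane list and 47.9% in the core YAP targets. With a per-library correction for GC content, chosen after seeing the data, 952 genes rose and 1083 fell, and 15 axon guidance, 18 developmental transcription factor, 16 ion channel and 13 basement membrane genes fell, 13 core targets, 19 interferon-stimulated and 18 histone genes rose, and 26 of the 269 genes picked by the rules for naming were no longer DEGs, HES4, CKB, CHRD, WNT3A, ITGA3 and MT-ND3 among them, and 7 list counts in 1 direction moved by over 1.5 times.

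**Figure D4:**
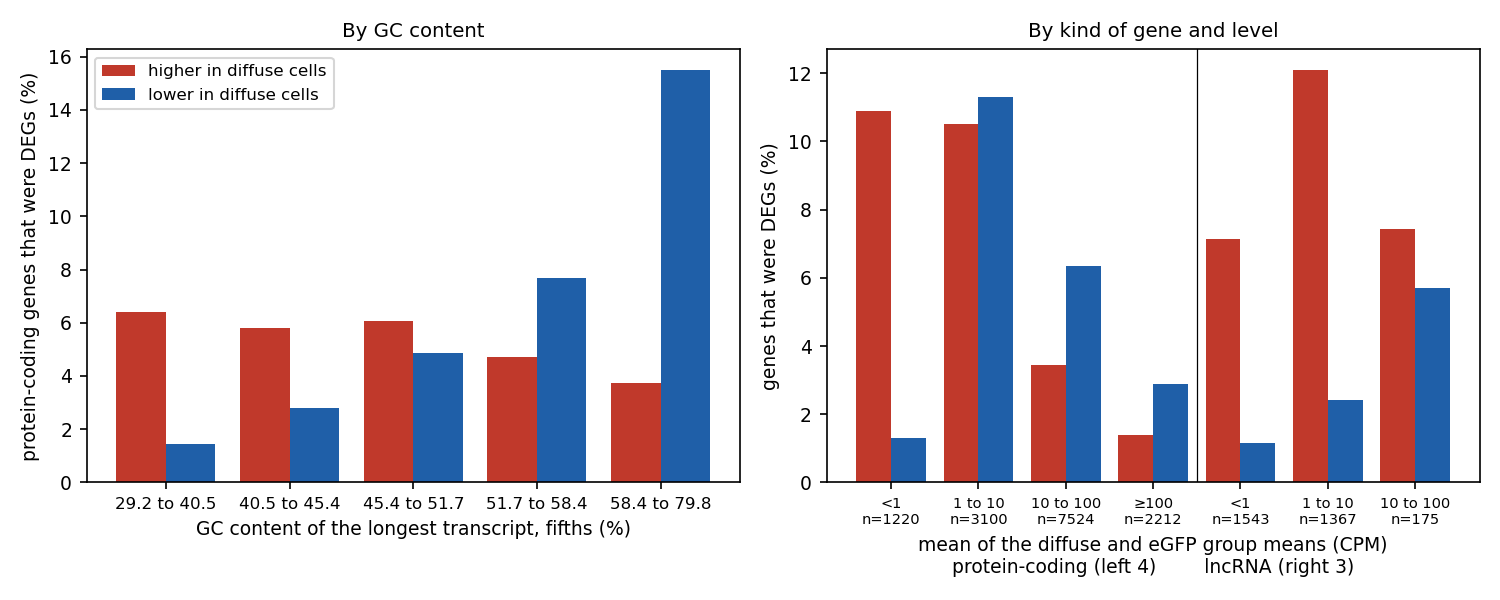
Share in percent of genes that were DEGs in diffuse against eGFP cells, higher in red and lower in blue: left, protein-coding genes in 5 equal bins of GC content; right, protein-coding and lncRNA genes by the mean of both group means in CPM (bins of under 20 genes left out). The share of falls climbs from 1.46 to 15.5% with GC content, and rises outnumber falls below 1 CPM. At that level the expression filter favours genes that are high in cells with the fusion.

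Few genes passed the DEG rule between diffuse and condensed cells, which with 3 libraries a group does not measure how alike they were. Between the 2 states of SPARK-OFF cells there were 28 DEGs (0.152%), with 10 (0.0544%) higher in the diffuse state and 18 (0.0979%) lower. The 10 became 4 without diffuse replicate 1 or 2 and 5 without condensed replicate 1 or 3. Without the expression filter 30 were higher and 33 lower, and with DESeq2 22 and 33. ANKRD1, at 740.5 ± 62.2 CPM in diffuse and 1783 ± 208 CPM in condensed cells, had a log2 difference of -1.27 ± 0.114 (standard error), with an adjusted p of 3.03e-06 by edgeR's quasi-likelihood test, and yet lay far above its 1.10 ± 0.469 CPM in eGFP cells. THBS1 (-0.96), CCN2 (-0.70), CCN1 (-0.65) and KRT4 (-1.17) were likewise lower than in condensed cells and far above eGFP cells. TNFRSF12A went the other way, at 62.7 ± 0.445 CPM in diffuse and 29.6 ± 1.46 CPM in condensed cells beside 13.9 ± 2.65 CPM in eGFP cells, and so did the phosphatase gene DUSP4 (9.37 ± 1.23, 3.85 ± 0.673 and 3.22 ± 0.251 CPM) and SEMA3B (17.8 ± 3.10, 7.96 ± 1.55 and 7.74 ± 0.779 CPM). For SEMA3B the condensed cells lay within 1 SD of the eGFP cells, and its log2 fold change in condensed against eGFP cells was 0.05 (adjusted p = 0.863 by edgeR's quasi-likelihood test). It was also a DEG above eGFP in no-mCherry cells with rapamycin, at 11.9 ± 1.24 CPM (log2 fold change 0.62, adjusted p = 0.0152 by the same edgeR test). LOXL4 was higher in diffuse than in condensed cells by 1.11, and with rapamycin than with DMSO in no-mCherry cells by 0.99. These comparisons share the diffuse libraries, and an overlap of their calls is not read.

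Rapamycin on its own was measured in the no-mCherry cells, where 151 genes (0.821%) were DEGs, 85 (0.462%) higher and 66 (0.359%) lower. The no-mCherry DMSO libraries are labelled DMSO by title and treatment, but their descriptions name rapamycin. The titles were followed. Leaving out 1 library at a time moved the 85 to between 31 (without rapamycin replicate 1) and 163 (without DMSO replicate 2), and the 66 to between 49 and 121 (without the same libraries). The response to rapamycin differed between SPARK-OFF and no-mCherry cells for 18 genes (0.0979%) at an adjusted p under 0.05 of the difference itself. Of the 1121 genes that rose in diffuse cells, 9 (0.803%, or 10.6% of the 85) were also higher with rapamycin there and 0 lower. Of the 1011 that fell, 12 (1.19%, or 14.1% of the 85) were higher and 3 (0.297%, or 4.55% of the 66) lower with rapamycin. CCN2, CCN1, ANKRD1 and THBS1 had log2 differences of -0.06, -0.00, -0.16 and 0.01 for rapamycin against DMSO in these cells, none past the test (adjusted p of 0.788, 0.996, 0.528 and 0.986 from edgeR's quasi-likelihood test). FGFR4, a growth factor receptor gene, was lower both in diffuse than in eGFP cells (-1.01) and with rapamycin than with DMSO (-0.45, adjusted p = 0.0364 by the same test). In condensed cells without rapamycin it was at -1.03 against eGFP, and diffuse and condensed cells differed by 0.02. The difference between the lines in its response was 0.46 (adjusted p = 0.44 by edgeR's quasi-likelihood test). The part of rapamycin in the level of FGFR4 in diffuse cells was not tested. The no-mCherry cells also held less of the fusion's transcript than the diffuse cells, so a rapamycin difference seen there need not have the same size in SPARK-OFF cells.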

How the data were processed

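RNA-seq libraries of the study were grouped by their labels, 3 per group, and 2 of the 5 groups make up the comparison. For the no-mCherry DMSO libraries the title and treatment name DMSO and the description names rapamycin, and the title was followed. The authors deposited a table of raw counts per gene. The study's methods name fastp for trimming and STAR for alignment, the build was hg38, and the processing notes add FastQC, HTSeq and edgeR. No source used here gives the annotation or the strand setting. Of 61533 identifiers, 61369 matched GENCODE 44 without their version, which gave names, lengths and coordinates. 0 columns of other samples were present. Counts were fitted in R 4.3.3 with edgeR 4.0.16 (quasi-likelihood, TMM, filterByExpr over 5 groups, all 15 libraries, common biological coefficient of variation 0.111), with Benjamini-Hochberg adjustment over 18391 genes. DESeq2 1.42.0 was an alternative. Standard errors are Wald errors. The steps were tested on simulated counts. No 2 libraries of a group agreed within sampling noise (chi-square per degree of freedom 3.3 or more). CPM below about 0.07 stand for 1 count, and totals of 14720387 to 24797509 counts limit the precision of genes below 1 CPM.

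The genes named are those the study names, the 20 largest rises and falls in fold and the 10 largest in TPM among coding DEGs with at least 5 CPM and groups that do not overlap, up to 5 rises and falls per list, lncRNA genes with a symbol, genes without eGFP counts, and list members given for contrast, chosen after their values were seen. Members, lists and rules were chosen with earlier results of these data known. Promoter sequences are from RefSeq (GRCh38.p14), and 8940 tested genes matched. The alternatives were RLE size factors, DESeq2, no filter, a test against the fold threshold (glmTreat), the 6 libraries alone, the replicate block, leaving out each library, and a GC offset added after seeing the data. A few genes that the rules pick are not reported here.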

Additional observations from a re-analysis of the deposited data

Results flagged for a closer look

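In 5 of the genes with the largest rises in diffuse cells, the response to rapamycin differed between the lines by the test of the difference itself (edgeR's quasi-likelihood test, adjusted over all genes): SPARK-OFF cells, where rapamycin makes the fusion diffuse, against no-mCherry cells, where it does not. The log2 response in SPARK-OFF cells minus that in no-mCherry cells was -0.647 for CCN1 (adjusted p = 0.017) and -0.64 for CCN2 (adjusted p = 0.0348). It was -1.105 for ANKRD1 (adjusted p = 0.00581), -0.972 for THBS1 (adjusted p = 0.0237) and -1.258 for KRT4 (adjusted p = 0.0237). In SPARK-OFF cells all 5 were lower with rapamycin, and in no-mCherry cells their levels were 541 CPM with rapamycin and 564 CPM with DMSO for CCN2 and 720.0 and 806 CPM for ANKRD1. TNFRSF12A, which also rose in diffuse cells, differed the other way, by 1.296 (adjusted p = 0.00431 by the same edgeR test). Over all genes, this test called 5 higher and 13 lower. For some the response lay mainly in no-mCherry cells, as for HSPA8 (-1.008 there and -0.124 in SPARK-OFF cells) and PBXIP1 (0.833 and 0.01). The lines also differed in the level of the fusion's transcript, and its part in these differences was not tested. The descriptions of the no-mCherry DMSO libraries name rapamycin, against their titles, which were followed.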

How the results depend on the processing

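For diffuse against eGFP cells, the main counts of 1121 higher and 1011 lower DEGs were 1145 and 988 with RLE size factors, 1210 and 1037 with DESeq2, 1452 and 1114 without the filter, 944 and 976 with the 6 libraries alone, and 952 and 1083 with the GC offset. Leaving out each library gave 1007 to 1108 higher and 883 to 1030 lower. A test against the fold threshold (glmTreat) gave 469 and 237 because it asks more of each gene. For diffuse against condensed cells (10 higher and 18 lower), no filter gave 30 and 33, DESeq2 gave 22 and 33, and leaving out a library gave 4 to 8 and 12 to 14. For rapamycin in no-mCherry cells (85 and 66), leaving out a library gave 31 to 163 higher, with 31, 36 and 34 without rapamycin replicates 1, 2 and 3, 46 without DMSO replicate 3 and 163 without DMSO replicate 2, and 49 to 121 lower, with 121 without DMSO replicate 2. The cause of these differences was not tested. The share of DEGs that were higher was 52.6% with TMM, 53.7% with RLE, 53.8% with DESeq2 and 46.8% with the GC offset. Of 269 genes named, none changed direction under any alternative and 102 lost their call under at least 1, nearly all under glmTreat. Some lost it under other alternatives too, 14 to 19 on leaving out 1 of the 6 libraries and 26 with the GC offset. The replicate numbers are not stated to pair samples, and same-numbered diffuse and eGFP libraries did not deviate together (r of -0.068, -0.031 and -0.054, and 0 of 6 libraries correlated best with their own number). With the replicate block, diffuse against eGFP cells gave 1096 and 1003, diffuse against condensed 9 and 17, and rapamycin 68 and 58.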
